A study of Oryza sativa with 36 samples.

Results

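In rice leaf sheaths, Os05g0335100, Os03g0787500 and Os03g0417833 stood far higher in non-infested plants of the near-isogenic line B15 than in its recurrent parent. They were chosen by their levels in the non-infested groups B15_0 and RP_0, as the genes with a B15_0 mean of 5 CPM or more that was also at least 8 times the RP_0 mean plus 0.1. CPM is the count scaled to the total of its library, and each group mean is over 3 libraries. The rule took 3 of the 38978 genes in the table, of which 34333 had a count in any library and 16437 reached 5 CPM in B15_0. If 0.1 is added to the RP_0 mean before the multiplication by 8, only Os05g0335100 is left, and the wider reading was chosen after both counts were known. Because B15_0 and RP_0 chose these genes, their difference between those groups is a description and carries no test.

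The plants were the recurrent parent RP, the indica cultivar 'Wushansimiao' (titled WT in the labels), and 3 near-isogenic lines (NILs) bred from it, B14 with BPH14, B15 with BPH15 and B1415 with both genes. Leaf sheaths were taken from seedlings at the four-leaf stage without infestation (0 h, group names ending in _0), after 3, 6 or 12 h of feeding, which were mixed as the early stage, and after 24, 48 or 72 h, which were mixed as the late stage. Infested seedlings carried 8 third-instar nymphs of the brown planthopper (BPH), each replicate held 15 seedlings, and the 12 groups had 3 replicates each, so 36 libraries were counted. Each NIL is 1 backcross line, so the effect of a BPH gene cannot be told apart from that of other donor segments in its line.

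The BPH feeds by pushing its stylets into the leaf sheath and drawing sap from the phloem. BPH14 encodes a coiled-coil nucleotide-binding leucine-rich-repeat protein, a class of intracellular immune receptor, and BPH15 has been mapped to a region with lectin receptor kinase genes, whose products sit at the cell surface. Saposin-like domains are small helical folds, held by disulphide bonds, that bind lipids and membranes, and in plants they also occur as an insert in some vacuolar aspartic proteases. Os05g0335100 is annotated as a saposin-like domain containing protein, Os03g0787500 as a hypothetical conserved gene and Os03g0417833 as a hypothetical gene. A protein domain is thus named for the first alone, and a role for none. The locus identifiers place the first on chromosome 5 and the other two on chromosome 3.

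Of the 3 genes, Os05g0335100 was also the one measured by qRT-PCR in the study. Its primer pair was not placed on a transcript sequence here. The pair is printed in lower case, 5′ to 3′, from the primer table of the study, and each primer has 20 bases with a GC content of 55%.
Os05g0335100 forward: ctcggcctcgaatttcgtct
Os05g0335100 reverse: aggccaagcttgtatctccc

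Library totals ranged from 10601967 to 18692187 counts, with a median of 15884382, so that 1 CPM stood for 10.6 to 18.7 counts. Among the genes annotated in the tables of the study, the 2 photosynthesis genes summed to between 250.2 and 841 CPM in every library. The 8 genes matched as seed storage or pollen, taken to stand for other organs, summed to between 277.9 and 459.2 CPM. These sums are a thin check of the leaf sheath label and do not settle it. In bulk tissue, fewer cells of a type and less RNA per cell cannot be told apart. Several libraries stood apart from their own group. Over 24169 genes, the rank correlation of B14_0-3 was 0.933 and 0.938 with the other B14_0 libraries and 0.961 to 0.963 with the B15_0 libraries. The library labelled B15_late-3 reached 0.995 with B1415_late-2 but 0.980 and 0.982 with its own group, and the library labelled B1415_late-3 reached 0.993 with B15_late-1 but 0.974 and 0.979 with its own group. All libraries were kept under their labels, and values without these libraries are given beside the results that rest on them.

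Os05g0335100 was low in RP and high in all 3 NILs at every stage, and B15 was not the line where it was highest. Before infestation it stood at 2.22, 2.89 and 2.25 CPM in RP_0 and at 34.6, 35.3 and 35.2 CPM in B15_0. It stood at 45.3, 47.2 and 37.6 CPM in B14_0 and at 48.5, 46.4 and 46.2 CPM in B1415_0. No NIL library came near the RP libraries, and the B15_0 libraries lay below every library of B14_0 and B1415_0. In mean CPM the order was B1415_0 (47.0 ± 1.25, SD, n = 3), B14_0 (43.4 ± 5.08), B15_0 (35.0 ± 0.355) and RP_0 (2.45 ± 0.379). The libraries of B1415_0 and B14_0 overlapped, whereas the other neighbours in this order did not. B15_0 was thus 14.3 times RP_0, B14_0 17.7 times and B1415_0 19.2 times. With CPM scaled by TMM, which adjusts for library composition, B15_0 lay closer to the other NILs. The means were then 39.7 CPM in B15_0, 45.0 in B14_0, 45.3 in B1415_0 and 2.37 in RP_0.

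After feeding began, the level of Os05g0335100 in RP was lower still. It was 0.314, 0.169 and 0.731 CPM in RP_early, from 3 to 13 counts per library, and 0.518, 0.472 and 0.673 CPM in RP_late, from 5 to 9 counts. All 6 infested RP libraries lay below the 3 RP_0 libraries, with means of 0.404 ± 0.292 and 0.554 ± 0.105 CPM (SD, n = 3) against 2.45 CPM. Since RP_0 was used by the rule, this difference has no test here. The infested NIL libraries stayed far above this level. The libraries stood at 33.8, 31.2 and 28.3 CPM in B15_early and at 38.9, 39.7 and 34.7 CPM in B15_late. They stood at 46.7, 41.6 and 41.4 CPM in B14_early and at 45.5, 47.8 and 44.8 CPM in B14_late. In B1415 they stood at 37.0, 44.0 and 39.1 CPM in the early and at 43.0, 38.4 and 36.9 CPM in the late stage. Over the 27 NIL libraries the range was 28.3 to 48.5 CPM (451 to 859 counts), while the 9 RP libraries held 0.169 to 2.89 CPM (3 to 44 counts).

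**Figure D1:**
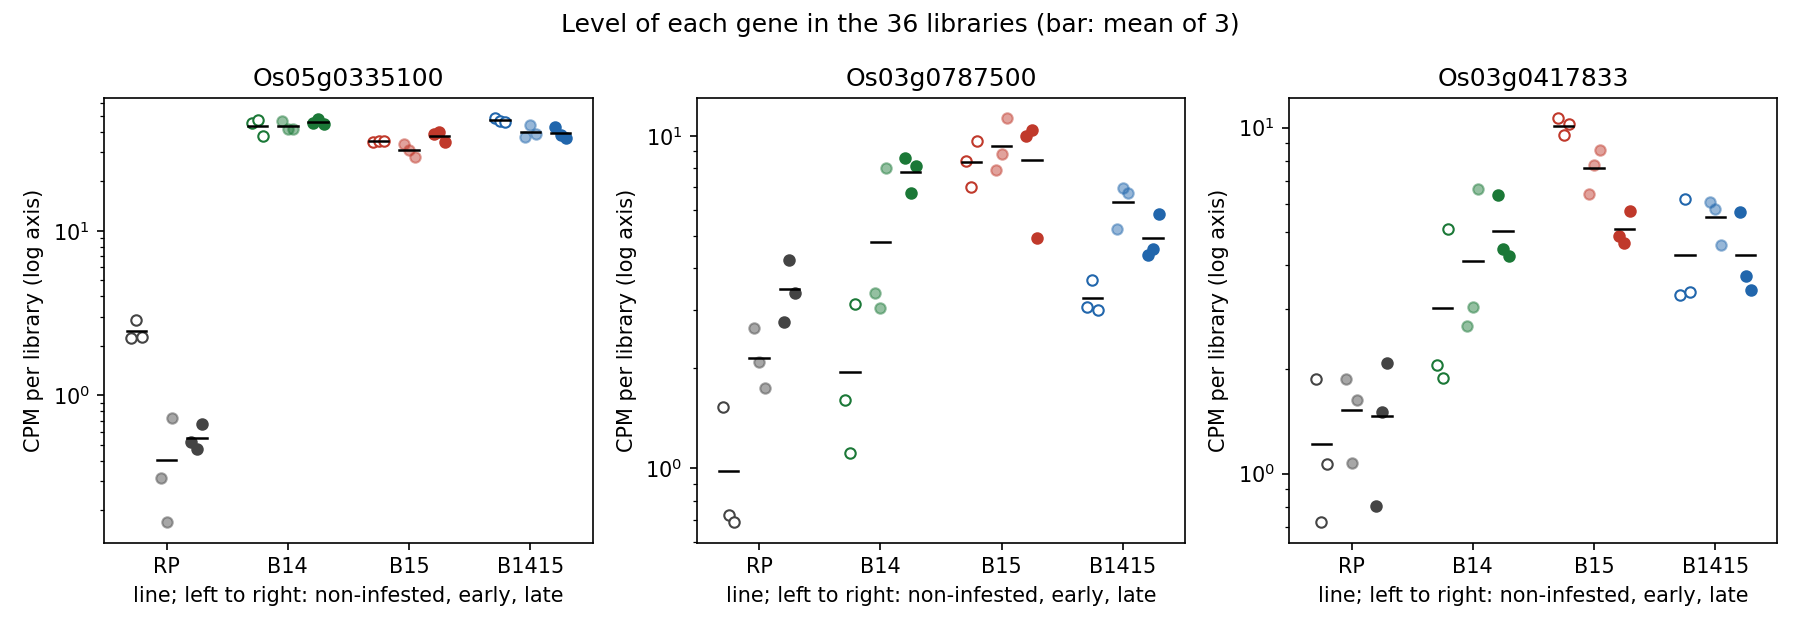
Level of Os05g0335100, Os03g0787500 and Os03g0417833 in CPM (log axis) in the 36 libraries, by line and, from left to right within a line, non-infested, early and late stage; each point is 1 library and each bar the mean of 3. Os05g0335100 separates the 27 NIL libraries (28.3 to 48.5 CPM) from the 9 RP libraries (0.169 to 2.89 CPM), whereas the other two genes spread over the lines and reach their highest libraries in B15 (11.3 and 10.6 CPM).

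Os03g0787500 was highest in B15 before infestation, lay between in B1415 and was low in B14 and RP. Its values were 8.42, 7.00 and 9.64 CPM in B15_0, 3.05, 3.68 and 3.00 CPM in B1415_0, 1.60, 1.11 and 3.12 CPM in B14_0 and 1.53, 0.723 and 0.688 CPM in RP_0. The B15_0 libraries did not overlap any other non-infested library. B14_0 overlapped both RP_0 and B1415_0, and its highest value was that of B14_0-3. The means were 8.35 ± 1.32, 3.24 ± 0.384, 1.94 ± 1.05 and 0.979 ± 0.474 CPM (SD, n = 3) in B15_0, B1415_0, B14_0 and RP_0, so that B15_0 was 8.53 times RP_0, B1415_0 3.31 times and B14_0 1.99 times (1.38 times without B14_0-3).

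At the feeding stages the levels of the other lines lay closer to B15 in this gene. Os03g0787500 stood at 2.63, 2.08 and 1.74 CPM in RP_early and at 2.76, 4.24 and 3.36 CPM in RP_late. In B14 it was 3.37, 3.03 and 8.02 CPM at the early and 8.59, 6.73 and 8.10 CPM at the late stage. Every infested RP library exceeded every RP_0 library, and the late B14 libraries all exceeded the B14_0 libraries. In B15 it was 7.87, 8.80 and 11.3 CPM at the early and 10.0, 10.4 and 4.92 CPM at the late stage, and in B1415 5.24, 6.95 and 6.75 CPM at the early and 4.37, 4.57 and 5.83 CPM at the late stage. The B15 means moved little over the 3 stages, from 8.35 to 9.32 and 8.46 CPM. B15_late-3 was low in its group, near the level of B1415_late, and B14_early-3 was high in its own. The mean of RP_late was 41.4% of that of B15_0, where RP_0 had 11.7%. The rule asked for a wide gap between B15_0 and RP_0. A narrower gap at the feeding stages and the rise from RP_0 are therefore descriptions and carry no test here.

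Os03g0417833 was likewise highest in B15_0, the group that the rule took as high, and within B15 its libraries stood lower at each later stage. Before infestation it stood at 10.6, 9.50 and 10.3 CPM in B15_0, 3.29, 6.21 and 3.35 CPM in B1415_0, 2.06, 1.89 and 5.09 CPM in B14_0 and 1.87, 0.723 and 1.06 CPM in RP_0. The means were 10.1 ± 0.584, 4.28 ± 1.67, 3.01 ± 1.80 and 1.22 ± 0.591 CPM (SD, n = 3), which put B15_0 at 8.31 times, B1415_0 at 3.51 times and B14_0 at 2.47 times RP_0. The B15_0 libraries lay apart from all others, B1415_0 and B14_0 overlapped, and the lowest B14_0 library (1.89 CPM) was barely above the highest RP_0 library (1.87 CPM). B14_0-3 was again the highest library of its group, and without it B14_0 had a mean of 1.98 CPM, 1.62 times RP_0.

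After feeding, Os03g0417833 stood at 6.44, 7.82 and 8.61 CPM in B15_early and at 4.85, 4.64 and 5.75 CPM in B15_late, so the 3 stages of B15 did not overlap. Because the rule chose B15_0 as high, the step down from it is a description and carries no test. The step from B15_early to B15_late was below the 2-fold limit (log2 fold change -0.70). In RP it was 1.88, 1.07 and 1.63 CPM at the early and 0.806, 1.51 and 2.09 CPM at the late stage, and the RP stages overlapped throughout. In B14 it was 2.66, 3.03 and 6.64 CPM at the early and 6.39, 4.44 and 4.24 CPM at the late stage. In B1415 it was 6.11, 5.83 and 4.57 CPM at the early and 5.72, 3.74 and 3.39 CPM at the late stage. At the late stage the 3 NILs overlapped, with means of 5.03, 5.08 and 4.28 CPM in B14, B15 and B1415, while all 9 of their libraries were above the RP_late libraries.

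The infested libraries were not used by the rule and allow a test. A gene was called where edgeR's quasi-likelihood test gave an adjusted p below 0.05 (Benjamini-Hochberg, over all genes tested) with an absolute log2 fold change above 1. All 3 genes were called higher in B15_early than in RP_early, where 7.2% of the 24380 genes tested were called higher. The log2 fold change was 6.33 for Os05g0335100 (SE 0.224, 95% interval 5.87 to 6.80, adjusted p = 1.7e-12), 2.24 for Os03g0787500 (SE 0.210, 1.80 to 2.68, adjusted p = 8.62e-08) and 2.44 for Os03g0417833 (SE 0.229, 1.96 to 2.92, adjusted p = 8.55e-08). In each case the 3 B15_early libraries were above the 3 RP_early libraries. B15_0 and B15_early are separate plants of the same line, so the early difference was measured in libraries the rule did not use but in the lines it had picked as high (B15) and low (RP).

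At the late stage 2 of the 3 genes were called higher in B15_late than in RP_late, where only 0.446% of genes were. Os05g0335100 was higher by 6.05 on the log2 scale (SE 0.186, 5.64 to 6.46, adjusted p = 7.79e-08) and Os03g0417833 by 1.81 (SE 0.306, 1.13 to 2.48, adjusted p = 0.0254). Os03g0787500 had a log2 fold change of 1.29 (SE 0.301, 0.63 to 1.96, adjusted p = 0.0923), although the 3 libraries of B15_late exceeded those of RP_late. At log2 fold changes of 1.29 to 1.30 this gene was called by DESeq2 (adjusted p = 0.00295, 0.85% of genes called higher), without the filter on low counts (0.0268, 0.572%) and in 1 fit of all 36 libraries (0.0497, 0.714%), and it passed at the unadjusted p with 2.59% of genes. Scaled by the size factors of DESeq2 within edgeR, it was not called (adjusted p = 0.0952). Without the library labelled B15_late-3, Os03g0787500 was called as well, at 1.59 with an adjusted p of 0.00379, when 0.816% of genes were called higher. The call of Os03g0417833 was lost without B15_late-2 or without any 1 of the RP_late libraries, with log2 fold changes of 1.48 to 2.17 and adjusted p from 0.0598 to 0.123 in edgeR's test, and only Os05g0335100 was then left. Few genes at all were called higher without them, 0.0203% without B15_late-2 and 0.00822%, 0.138% and 0.0324% without RP_late-1, -2 and -3.

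The same genes were tested in B14 and B1415, of which the rule used no library, against the infested libraries of RP, the line in which the rule had picked them as low. In B14_early against RP_early all 3 were called higher (1.22% of genes were), with log2 fold changes of 6.73 (SE 0.213, adjusted p = 9.25e-11) for Os05g0335100, 1.19 (SE 0.333, adjusted p = 0.0118) for Os03g0787500 and 1.46 (SE 0.349, adjusted p = 0.00453) for Os03g0417833. Leaving out B14_early-3 left Os05g0335100 alone (0.688% of genes were then called higher), because the log2 fold change of Os03g0787500 was then 0.61 (adjusted p = 0.0909) and that of Os03g0417833 0.93 (adjusted p = 0.0280), below the 2-fold limit. In B14_late against RP_late all 3 were called higher (3.44% of genes were), at 6.32 (SE 0.169, adjusted p = 4.91e-09), 1.18 (SE 0.205, adjusted p = 0.00500) and 1.78 (SE 0.326, adjusted p = 0.00608) in the same order. At the early and the late stage, every B14 library was above every RP library in all 3 genes.

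In B1415_early against RP_early all 3 genes were called higher too (3.93% of genes were), with log2 fold changes of 6.56 (SE 0.204, adjusted p = 3.17e-14) for Os05g0335100, 1.53 (SE 0.204, adjusted p = 3.28e-05) for Os03g0787500 and 1.83 (SE 0.230, adjusted p = 1.81e-05) for Os03g0417833. In B1415_late against RP_late Os05g0335100 alone was called (0.0124% of genes were called higher), at 6.08 (SE 0.166, adjusted p = 2.02e-07). Os03g0417833 had a log2 fold change of 1.52 (adjusted p = 0.161) and Os03g0787500 one of 0.49 (95% interval -0.03 to 1.02, adjusted p = 0.409). Without the library labelled B1415_late-3, Os03g0417833 was called at 1.64 (adjusted p = 0.00488), when 1.42% of genes were called higher. It was also called by DESeq2 (1.51, adjusted p = 0.0130, 0.334% of genes called higher) and passed at the unadjusted p with 1.72% of genes. The comparisons of the 3 NILs with RP share the RP libraries of their stage.

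**Figure D2:**
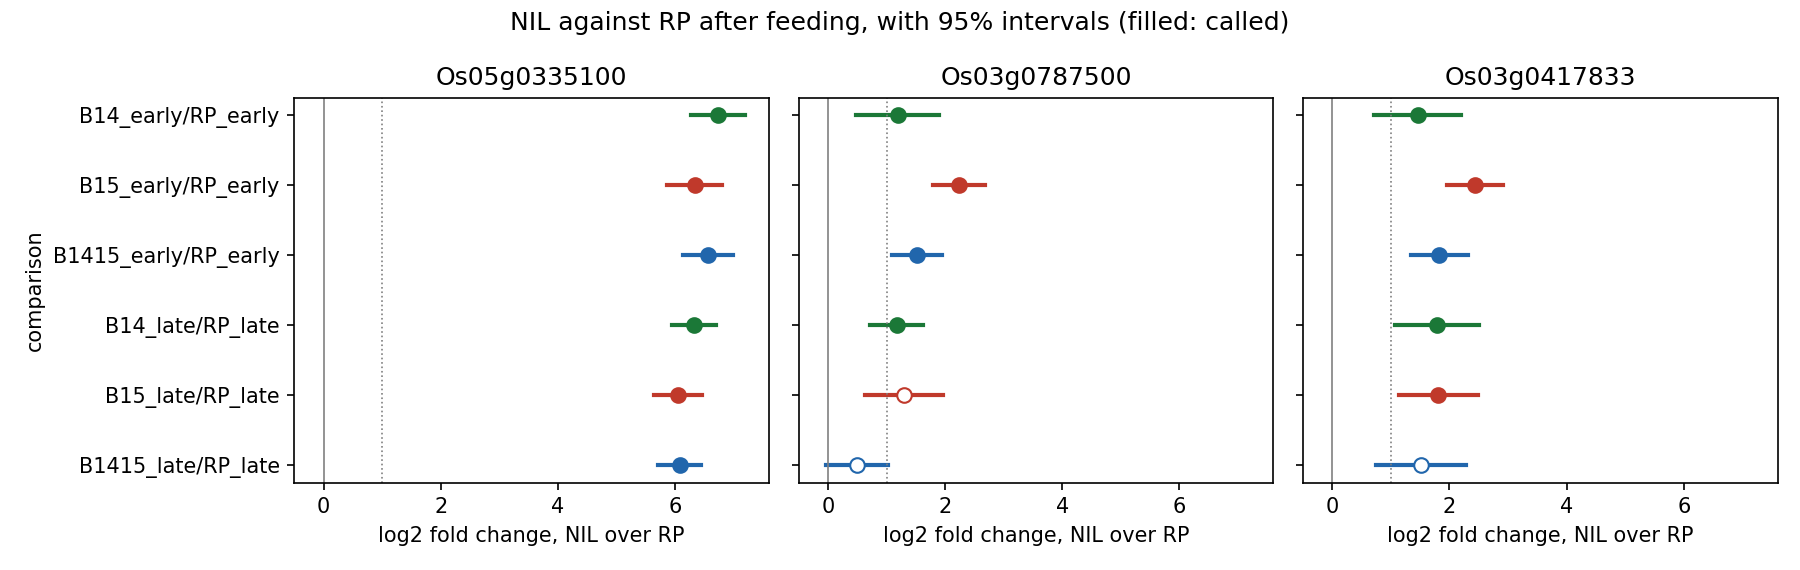
Log2 fold change of each NIL over RP at the early and late feeding stage for the 3 genes, with 95% intervals from edgeR's quasi-likelihood fit; filled points were called and open points were not, and the dotted line marks the 2-fold limit. Os05g0335100 lies between 6.05 and 6.73 in all 6 comparisons, and the open points are Os03g0787500 in B15_late (1.29) and B1415_late (0.49) and Os03g0417833 in B1415_late (1.52).

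Direct comparison of infested B15 with the line that carries both BPH genes called none of the 3 genes when all libraries were kept. In B15_early against B1415_early none of the 3 genes was called (5.39% of genes were). Os03g0787500 had a log2 fold change of 0.75 (95% interval 0.39 to 1.12, adjusted p = 0.00142) and Os03g0417833 one of 0.65 (0.29 to 1.02, adjusted p = 0.00448), both below the 2-fold limit. For Os05g0335100 it was -0.19 (-0.38 to 0.01, adjusted p = 0.103). In B15_late against B1415_late the values were -0.03 (-0.29 to 0.23) for Os05g0335100, 0.80 (0.11 to 1.49) for Os03g0787500 and 0.28 (-0.23 to 0.80) for Os03g0417833, with an adjusted p of 1.00 in each, and 0% of genes were called. With B1415_late-3 and B15_late-3 both left out, 1.47% of genes were called higher in B15_late, Os03g0787500 among them at 1.27 (adjusted p = 0.00357). In non-infested plants, B1415_0 against B14_0 called none of the 3 genes (0.0927% of genes were called), and without B14_0-3 it called Os03g0787500 higher in B1415_0 at 1.25 (adjusted p = 0.0428), when 1.01% of genes were called higher.

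From the early to the late stage within a line, none of the 3 genes was called in any line, where 3.82% of all genes tested were called for RP, 18.6% for B14, 10.3% for B15 and 0.974% for B1415. The change nearest to the limit in B15 was that of Os03g0417833, with a log2 fold change of -0.70 (SE 0.194, 95% interval -1.12 to -0.28, adjusted p = 0.0113). In RP, Os03g0787500 had 0.72 (SE 0.246, 0.20 to 1.24, adjusted p = 0.0371), and Os05g0335100 was not tested because its counts in both stages were under the filter. In B14, Os03g0787500 had 0.65 (adjusted p = 0.119), and without B14_early-3 it was called at 1.19 (adjusted p = 0.00216), when 9.79% of genes were called higher. The NILs gave log2 changes of 0.04, 0.18 and 0.03 for Os05g0335100 in B14, B15 and B1415, with adjusted p from 0.243 to 0.883.

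Late feeding could also be set against non-infested plants in the NILs whose non-infested libraries the rule left aside. In B14_late against B14_0, Os03g0787500 rose by 1.92 on the log2 scale (SE 0.438, 0.89 to 2.94, adjusted p = 0.0119), 1 of the 3 genes where 12.6% of genes were called higher. Os03g0417833 had 0.64 (adjusted p = 0.331), and without B14_0-3 it was called at 1.32 (adjusted p = 0.00355), when 13.6% were called higher. In B1415_late against B1415_0 none was called (11.2% of genes were), with log2 fold changes of -0.25 (adjusted p = 0.0752), 0.62 (adjusted p = 0.0529) and -0.0017 (adjusted p = 0.997) for Os05g0335100, Os03g0787500 and Os03g0417833.

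The line-by-stage interaction asked whether B15 and RP took different courses from early to late feeding, at an adjusted p below 0.05. None of the 3 genes passed, where 26.6% of 25245 genes did. The interaction was -1.004 for Os03g0787500 (SE 0.403, 95% interval -1.85 to -0.15, unadjusted p = 0.0235 and adjusted p = 0.0744 in edgeR's test), -0.69 for Os03g0417833 (adjusted p = 0.212) and -0.34 for Os05g0335100 (95% interval -1.29 to 0.60, adjusted p = 0.601). Os05g0335100 passed the filter here through the B15 libraries, since in RP it had 3 to 13 counts at the early and 5 to 9 at the late stage. Its course in RP is too poorly measured for this result to tell the courses apart. In the comparisons within lines and among NILs where no gene was called, DESeq2 at the same limits and an unadjusted p with the fold limit called none either. In the interaction, DESeq2 passed none, while Os03g0787500 passed at the unadjusted p, as did 20.3% of genes in the same direction. Without B15_late-2 it passed at the adjusted p as well (-1.21, adjusted p = 0.0310), with 14.8% of genes in that direction.

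The limit of 8 times lies in a continuous range of genes. Just inside it were Os03g0417833 (10.1 CPM in B15_0, where the rule asked for 9.86) and Os03g0787500 (8.35, where it asked for 7.93), while Os05g0335100 was far inside (35.0, where it asked for 19.7). Just outside were Os01g0784833 (27.7 against 29.8 asked for), Os03g0244333 (6.68 against 7.01), Os11g0247350 (31.4 against 35.7) and Os01g0358551 (20.4 against 23.0). Os01g0784833 and Os11g0247350 are annotated as hypothetical genes and Os01g0358551 as a conserved hypothetical protein, like the pair just inside. With 4 times in place of 8 times the rule takes 114 genes, and with CPM scaled by TMM it takes 14, all 3 genes among them in both cases.

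The genes just outside took unlike courses. B15_0 and RP_0 placed them near the limit too, so steps from those groups are descriptions. Os01g0784833 had means of 27.7, 23.3 and 13.7 CPM over the stages of B15, and Os11g0247350 had 31.4, 24.3 and 15.4 CPM, the same order of stages as in Os03g0417833. Both were at 3.71 to 5.46 CPM in the RP groups and at 9.96 and 10.9 CPM in B14_early, where B14_early-3 alone had 17.9 and 20.8 CPM. Os01g0358551 had 20.4, 22.3 and 15.8 CPM over the stages of B15 and 2.86, 5.38 and 6.28 CPM over those of RP. Os03g0244333 had 0.863, 9.53 and 25.2 CPM over the stages of RP and 6.68, 22.8 and 57.2 CPM in B15. None of these 4 genes kept the high level in all NILs and the low level in RP that Os05g0335100 showed.

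**Figure D3:**
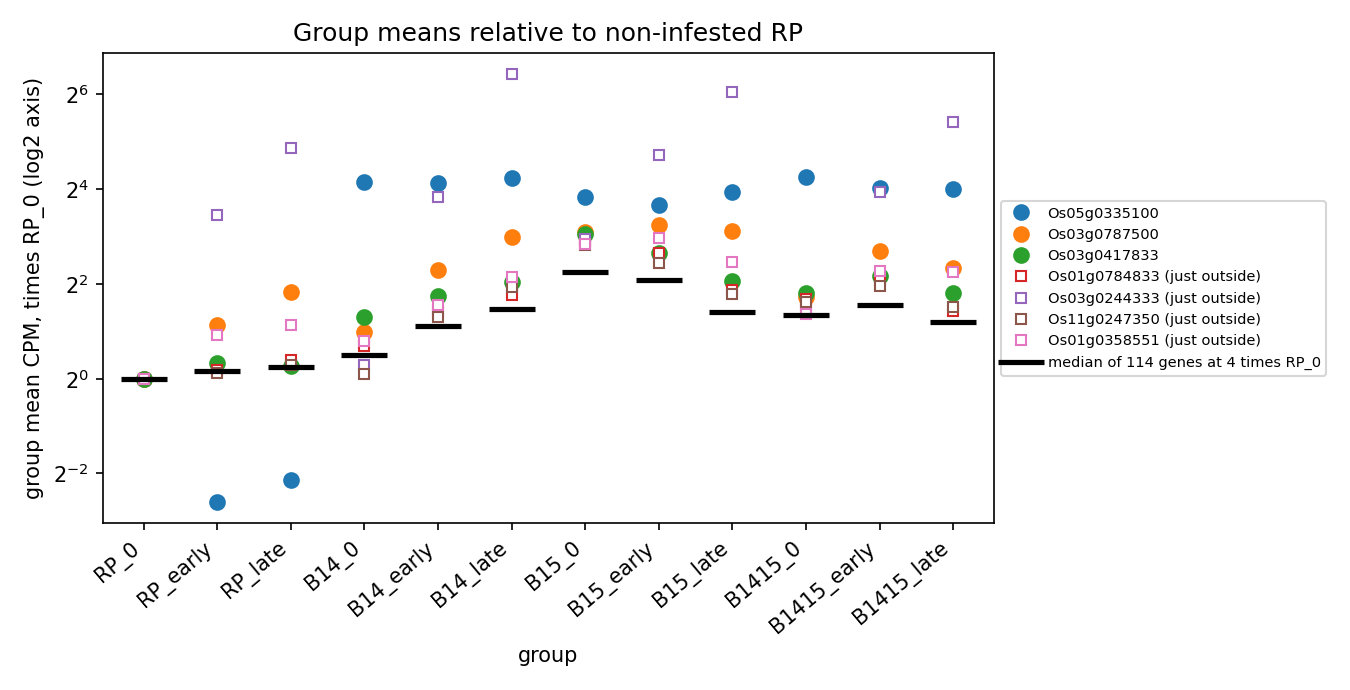
Group mean CPM relative to RP_0 (log2 axis) in the 12 groups for the 3 genes inside the rule (filled), the 4 just outside it (open squares) and the median of the 114 genes at 4 times RP_0 or more (bars). Os05g0335100 is below 1 in infested RP (0.165 and 0.226) and between 12.7 and 19.2 in all NIL groups, whereas the median of the 114 genes is 4.76 in B15_0, 1.41 in B14_0 and 2.64 in B15_late.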

How the data were processed

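The authors deposited whole-number counts of fragments per gene for 36 libraries, not normalized. According to the methods, clean reads were aligned to IRGSP-1.0 with HISAT2 (2.0.4 per the submitters' processing notes) and counted with HTseq, whose version, strand setting and annotation release are not given in the sources used here. Labels and methods differ in the library kit (rRNA depletion or poly-A selection), the sequencer and 1 infestation time. No column was left out (0 unused).

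From the counts, CPM was computed with each library's total over all genes. Comparisons were fitted in R 4.3.3 with edgeR 4.0.16 (limma 3.58.1) on the 6 libraries of the 2 groups, or 12 for the interaction, after filterByExpr (minimum count 10) and TMM scaling. Intervals are 95% intervals of the fit. Spread and p-values refer to the 3 replicates per group that the labels give, each of 15 pooled seedlings. In a self-test on counts modelled on B15_early/RP_early (24380 genes, 200 with a log2 fold change of 2 up or down), 95.5% were recovered with 1 false call. The counts were drawn from the kind of model that edgeR fits. The self-test therefore does not cover smaller changes or libraries that stand apart from their group.

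The genes and lists were chosen with earlier results of these data known. Named genes are all members, the 4 nearest outside the rule, and, in the closing section only, loci chosen after their values were seen. Gene names came from annotations in the study's supplementary tables, which cover 1582 genes of the table and all 3 members. The reading of the rule with 0.1 added after the multiplication was settled with both counts in view.

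As alternatives, counts were scaled in edgeR by the size factors of DESeq2, fitted without the filter, tested with DESeq2 1.42.0, and fitted with a replicate block. Further ones were 1 fit of all 36 libraries, an unadjusted p, each library left out in turn, and, for the rule, 4 and 16 times, a floor of 2 CPM and TMM-scaled CPM. Added after the data were seen were leaving out B15_late-3 with B1415_late-3 and adding 0.1 first. Replicate numbers did not pair the libraries, since in 0 of 15 comparisons were all same-number correlations above 0.1 (range -0.573 to 0.227).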

Additional observations from a re-analysis of the deposited data

How the results depend on the processing

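The number of genes taken by the rule moved most: it was 114 at 4 times, 0 at 16 times, 13 with a floor of 2 CPM, 14 with TMM-scaled CPM and 1 with 0.1 added first, and 1 to 7 when a library of RP_0 or B15_0 was left out (7 without RP_0-1, 1 without RP_0-2 or RP_0-3). Os05g0335100 was called in all 6 comparisons of an infested NIL with RP under every alternative run. The number called in B15_late/RP_late was 3 with DESeq2, without the filter, in 1 fit of all libraries and with the unadjusted p, and 1 to 3 with a library left out. In B1415_late/RP_late it was 2 with DESeq2 and with the unadjusted p, and 1 to 2 with a library left out. It was 1 to 3 in B14_early/RP_early, 0 to 1 in B14_late/B14_early, 1 to 2 in B14_late/B14_0 and 0 to 1 in B1415_0/B14_0, where the changes came from leaving out B14_early-3 or B14_0-3. In B15_late/B1415_late it was 1 with B1415_late-3 and B15_late-3 both left out. In the interaction it was 1 with the unadjusted p and 0 to 1 with a library left out (without B15_late-2). The cause of these changes was not tested. With the replicate number as a block, Os03g0787500 was called in B15_late/RP_late (log2 fold change 1.24, adjusted p = 0.0240 in edgeR's test, against 1.29 and 0.0923), so that 3 genes were called where 0.646% of all genes were called higher (0.446% without the block), and no other call among the 3 genes changed.

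Of 582 values per gene and alternative, 540 kept direction and side of the threshold, 15 gained a call, 6 lost one and 21 changed sign. None of the 21 was called. Outside the left-out libraries they were 0.031 for Os05g0335100 in B15_late/B1415_late with both libraries out, and 0.00055 (no filter) and 0.028 (replicate block) for Os03g0417833 in B1415_late/B1415_0. With a library left out, the log2 fold change of Os05g0335100 ranged from -0.097 to 0.045 in B15_late/B1415_late, -0.036 to 0.077 in B14_late/B14_early, -0.031 to 0.10 in B1415_late/B1415_early, -0.027 to 0.077 in B14_late/B14_0 and -1.11 to 0.048 in the interaction. That of Os03g0417833 ranged from -0.39 to 0.30 in RP_late/RP_early, -0.026 to 0.72 in B14_late/B14_early and -0.23 to 0.39 in B1415_late/B1415_0, and that of Os03g0787500 from -0.46 to 0.029 in B15_late/B15_early. Counts of 3 to 13 per library for Os05g0335100 in infested RP limit the precision of its folds.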

Other observations

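The values in this section were chosen after the data had been seen and are descriptions with no test. Of the 37849 loci with an Os identifier, 4 (0.0106%) had every one of the 27 NIL libraries above every one of the 9 RP libraries: Os05g0335100, Os05g0334750, Os03g0192750 and Os07g0151800. Os05g0334750, annotated as similar to a CBL-interacting protein kinase, a family of kinases that act with calcium sensors, directly precedes Os05g0335100 in the order of locus identifiers. It had 0 counts in 9 of 9 RP libraries and 1 to 14 counts (0.0703 to 0.837 CPM) in 27 of 27 NIL libraries. The 177 counts summed over the NILs gave 0.416 CPM. With 0 counts in RP and as few as 1 in a NIL library, no fold is given. The following locus, Os05g0335401, did not share the pattern, with means of 70.1 CPM in RP_0, 42.8 in B14_0, 21.8 in B15_0 and 55.3 in B1415_0. Os03g0192750, a hypothetical gene, held 0.169 to 0.526 CPM in RP and 0.558 to 2.68 CPM in the NILs. Os07g0151800 held 9.56 to 11.4 CPM in RP and 13.8 to 22.9 CPM in the NILs.

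Neighbours of the chromosome 3 genes were taken in the identifier order, 3 on each side. Several were higher in B15_0 than in RP_0, and others were not. Os03g0787350, annotated as a hypothetical protein and 2 places from Os03g0787500, had means of 1.62 CPM in RP_0 and 5.06 CPM in B15_0. It was also above RP_0 in B1415_0. Os03g0787600, next to Os03g0787500, had 144 CPM in RP_0 and 244 CPM in B15_0. Os03g0787300 had 129.6 and 149.2 CPM in these groups, and Os03g0788100 had 2.55 and 4.47 CPM. The other NILs were above RP_0 in these loci as well. In B14_0 and B1415_0, Os03g0787600 had 191 and 152 CPM, Os03g0787300 136.9 and 159.5 CPM and Os03g0788100 3.47 and 3.27 CPM. Os03g0417800, next to Os03g0417833, had 251 CPM in RP_0 and 407 CPM in B15_0, but also 411 CPM in B14_0. That B14_0 mean rests in part on B14_0-3, which stood apart from its group and had 659 CPM. The median over the B14 libraries of all stages was 289 CPM. Os03g0418000 had 21.6 and 24.9 CPM in RP_0 and B15_0. Os03g0417900 was lower in B15_0 (33.9 CPM) than in RP_0 (91.5 CPM), as was Os03g0418600 (4.27 against 13.1 CPM). How often neighbours of other loci differ in this way was not counted. The strand setting of the counting is not given, so it is not known whether reads of overlapping or antisense genes were kept apart.

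The 114 loci at 4 times RP_0 or more in B15_0 differ from other loci in their identifiers. Of them, 93 (81.6%) have an identifier that does not end in 00, against 840 of 16431 loci (5.11%) with 5 CPM or more in B15_0. Their median level, relative to RP_0, was 4.76 in B15_0, 2.53 in B1415_0 and 1.41 in B14_0, then 4.27 in B15_early and 2.64 in B15_late, and 1.13 and 1.19 in RP_early and RP_late. Single libraries of B14 differed: the median was 1.18, 1.13 and 1.89 in B14_0-1, -2 and -3, and 1.46, 1.36 and 3.64 in B14_early-1, -2 and -3. Loci with such identifiers took 2.25% ± 0.0366 of all counts in RP_0 and 2.70% ± 0.0534 in B15_0 (SD, n = 3), and 2.78% ± 0.123 in B14_late. B15_0 and RP_0 together chose the 114 loci, so their B15_0 level supports nothing further. All the medians given for them are relative to RP_0, which was chosen as low, and none is independent of that choice.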
